A study of Mus musculus with 8 samples.

Results

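The genes described here encode the nuclear share of the mitochondrial respiratory chain and ATP synthase, and were measured in mouse uterus by Visium, a slide of barcoded spots that each record the messenger RNA released by the piece of tissue lying above them. They were chosen by symbol alone, as every gene in any of the 4 deposited comparisons whose name begins with Nduf and a letter from a, b, c, s or v, with Uqcr, Uqcc or Atp5, or with Cox and a digit from 4 to 8, together with Sdha to Sdhd, Cyc1 and Cycs. This gave 84 of the 5828 genes listed in any comparison. The 84 fell into 37 genes of complex I, 4 of complex II, 9 of complex III, cytochrome c, 12 of complex IV, 17 of complex V and 4 assembly factors that the naming pattern also caught.

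The study compared Ezh2cKO females (KO, EZ fl/fl; Prcre/+), 4 in number, with 4 WT females (EZ fl/fl), 1 of each genotype from each of 4 litters on a mixed C57BL/6 and 129SvEv background. The WT animals thus carried the floxed Ezh2 alleles too, and the Cre of the KO came from the progesterone receptor locus, so that deletion was aimed at cells with a history of that receptor. All were ovariectomized at postnatal day 71 ± 4, and uteri were taken at day 112 ± 11 and cut at 10 µm. The deposited values merge the animals of a genotype into 4 pools of spots, KO epithelium, WT epithelium, KO stroma and WT stroma. There is hence 1 value per gene and pool with no spread between animals, and the authors' adjusted p-values come from a test that the sources used here do not name, which may measure variation between spots. Ezh2, the methyltransferase gene that was deleted, is not among the genes analysed here.

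The respiratory chain passes electrons from NADH (complex I) and succinate (complex II) through complex III and cytochrome c to oxygen at complex IV, and the proton gradient made on the way drives ATP synthase, complex V. Complexes I, III, IV and V join a few subunits translated inside the mitochondrion from its own genome with many subunits transcribed in the nucleus, made in the cytosol and imported, whereas complex II is wholly nuclear. Textbook regulators of the nuclear share are the transcription factors NRF1, GABPA (NRF2), YY1 and the estrogen-related receptors, working with coactivators of the PGC-1 family.

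What the genes share beyond their names was first looked at in their promoters. RefSeq start sites (GRCm38.p6) gave a window of 300 bases, 250 before the start and 50 after it, for 71 of the 84 genes (76 windows). Each window was searched on both strands for GCATGCGC (NRF1), CCGGAAG (GABPA), AAGATGGC (YY1) and CAAGGTCA (estrogen-related receptor), none of which contains another. The NRF1 string was present in 14.5% of the respiratory chain windows and in 2.71% of all 32851 windows. The GABPA string was in 23.7% against 8.86%, the YY1 string in 15.8% against 2.75%, and the receptor string in 6.58% against 1.56%. At least 1 of the 4 was in 48.7% of the respiratory chain windows and in 14.7% of all windows. Median GC content was 58.8% in the respiratory chain windows and 52.7% in all windows, and its part in these shares was not tested.

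The windows of 4 genes are shown because these are the genes the authors' adjusted p-value separated between epithelium and stroma, and capitals mark a matched string, here a GABPA match on the opposite strand. Only Atp5md of the 4 has a match in this window.
Ndufc2, chr7:97399753-97400052, plus strand: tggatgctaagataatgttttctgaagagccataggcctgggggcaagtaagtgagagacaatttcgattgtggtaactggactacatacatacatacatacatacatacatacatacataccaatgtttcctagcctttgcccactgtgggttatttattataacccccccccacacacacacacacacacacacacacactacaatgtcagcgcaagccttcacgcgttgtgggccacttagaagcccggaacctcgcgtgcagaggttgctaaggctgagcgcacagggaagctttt
Cox5a, chr9:57520982-57521281, plus strand: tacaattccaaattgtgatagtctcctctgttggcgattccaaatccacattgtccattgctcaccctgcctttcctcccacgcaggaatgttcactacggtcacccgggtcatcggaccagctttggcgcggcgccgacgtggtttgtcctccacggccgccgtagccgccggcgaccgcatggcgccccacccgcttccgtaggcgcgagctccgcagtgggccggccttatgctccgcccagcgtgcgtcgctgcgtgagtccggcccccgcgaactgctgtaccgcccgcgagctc
Atp5md, chr19:47090598-47090897, minus strand: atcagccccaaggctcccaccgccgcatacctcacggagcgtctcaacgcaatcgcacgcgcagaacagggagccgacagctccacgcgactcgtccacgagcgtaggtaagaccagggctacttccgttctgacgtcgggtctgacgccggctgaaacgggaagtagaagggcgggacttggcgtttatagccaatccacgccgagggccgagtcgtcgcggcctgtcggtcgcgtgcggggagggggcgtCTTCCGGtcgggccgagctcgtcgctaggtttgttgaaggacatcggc
Ndufa12, chr10:94198785-94199084, plus strand: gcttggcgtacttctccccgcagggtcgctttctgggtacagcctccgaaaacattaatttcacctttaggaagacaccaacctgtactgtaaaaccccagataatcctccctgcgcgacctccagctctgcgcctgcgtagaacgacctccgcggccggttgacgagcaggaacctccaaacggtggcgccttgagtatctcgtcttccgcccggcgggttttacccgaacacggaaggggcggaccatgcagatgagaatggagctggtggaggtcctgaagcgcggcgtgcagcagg

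A second pair is shown because these genes had the largest positive and negative log2 ratios between genotypes in stroma among genes above an average of 1 in both stroma pools, and each holds 1 match. Capitals mark GABPA in Uqcrh, again on the opposite strand, and YY1 in Ndufc1.
Uqcrh, chr4:116075021-116075320, minus strand: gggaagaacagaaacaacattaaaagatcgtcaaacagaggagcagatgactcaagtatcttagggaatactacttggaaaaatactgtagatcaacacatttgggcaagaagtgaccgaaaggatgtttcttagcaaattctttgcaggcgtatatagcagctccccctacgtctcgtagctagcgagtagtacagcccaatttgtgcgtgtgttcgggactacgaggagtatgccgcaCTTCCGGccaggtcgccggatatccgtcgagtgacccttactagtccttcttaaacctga
Ndufc1, chr3:51408906-51409205, minus strand: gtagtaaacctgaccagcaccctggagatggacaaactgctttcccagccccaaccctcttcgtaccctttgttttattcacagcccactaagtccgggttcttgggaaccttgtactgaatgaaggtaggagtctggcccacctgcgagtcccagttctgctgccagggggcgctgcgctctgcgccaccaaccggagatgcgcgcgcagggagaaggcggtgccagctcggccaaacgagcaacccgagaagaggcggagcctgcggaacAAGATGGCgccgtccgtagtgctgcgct

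All 84 genes were found in the GENCODE M21 annotation of GRCm38, 83 as protein-coding genes. The exception is Ndufb1-ps, annotated as a noncoding RNA from a bidirectional promoter, and Atp5md appears there as Usmg5. The genes were spread over 19 chromosomes, with 3 on X and at most 7 on any other. Of 98 protein-coding genes that the naming pattern finds in the annotation, 82 were listed and 16 are not analysed here. Among these 16 are Cox4i2, Cox6a2, Cox6b2, Cox7a1, Cox7b2, Cox8b and Cox8c, which encode alternative complex IV isoforms restricted to tissues such as heart, skeletal muscle, lung or testis, and 7 complex I assembly factors, Ndufaf1 to Ndufaf7. For 9 members, among them Cox6a1, Cox7c and Atp5h, another gene holds a near copy of the transcript's 3′ end (at least 95% identity over at least 200 of its last 300 bases). None of these copies was listed, and how such reads were assigned is not stated in the sources used here. Another annotated gene runs over the 3′ end on the same strand in 5 members and on the opposite strand in 10. The latter include Atp5md (Taf5), Cox5a (Gm26631), Ndufa3 (Tfpt) and Cox6c (Vps13b). Whether reads were separated by strand is not stated in the sources used here. For the 5 same-strand overlaps strand cannot separate them.

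The depth behind the values was set by the pools. The 84 genes had 40078 UMIs (unique molecules) in KO epithelium and 38731 in WT epithelium. In KO stroma 80 of them were listed, with 24675 UMIs, against 73 with 12111 UMIs in WT stroma. A level is the UMIs of a pool divided by its size factor sum, called normalised UMIs below. On 1 common scale the sums were 61.7 for KO epithelium, 56.9 for WT epithelium, 45.0 for KO stroma and 22.4 for WT stroma. Intervals are 95% counting intervals and leave out all variation between animals and spots. The deposited averages, called averages below, use a separate scale in each comparison. The size factor sum of KO stroma was 170 in the genotype comparison and 89.2 in the compartment comparison. An average therefore need not equal the level of the same pool, and averages of different comparisons cannot be set side by side. A gene is listed in a comparison when its average exceeds 1 in either group. A gene near that limit is thus listed more easily when it is high in 1 group. In a spot that covers several cells, fewer cells of a type and less RNA per cell cannot be told apart.

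The compartment names were checked against markers. In KO, 12 of 12 listed simple uterine epithelium markers, keratins and claudins among them, were called higher in epithelium, with summed averages of 84.0 in epithelium and 27.0 in stroma. In WT, 9 of 9 were called higher, with summed averages of 57.9 in epithelium and 7.47 in stroma. The stroma average was at most 1 for 3 of the 12 in KO and 7 of the 9 in WT. Epithelium alone brought these into the comparison, so their direction was fixed by the listing and is no check of the names. Of 9 endometrial stroma markers, 3 in KO and 6 in WT were called lower in epithelium. No marker of fat or of skeletal or heart muscle was listed in any comparison.

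Within a pool the genes spanned a wide range. Set against transcript length, Cox6c, a small accessory subunit of complex IV, was highest, at 59.9 normalised UMIs per kb in KO epithelium and 65.7 in WT epithelium. Atp5e, the epsilon subunit of ATP synthase, followed at 47.9 in KO and 49.0 in WT, and Cox7c, also of complex IV, had 47.0 in KO and 41.1 in WT. The lowest per length were Uqcc1, an assembly factor of complex III, at 0.339 in KO epithelium and 0.394 in WT epithelium, Ndufs1, the largest core subunit of complex I, at 0.542 in both, and Cycs, cytochrome c itself, at 0.597 in KO and 0.630 in WT. A UMI counts a molecule once whatever its length, and without the division by length the order changed. The highest were then Cox6c at 30.1 normalised UMIs in KO and 33.0 in WT, Cox4i1 at 27.2 in KO and 24.5 in WT and Cox7c at 25.4 in KO and 22.2 in WT, and Ndufa9, a complex I accessory subunit, lay below Cycs, at 1.65 in KO and 1.92 in WT. The order of the 84 levels was nearly the same in KO and WT epithelium (Spearman's rho across genes 0.987). Across the 73 genes with levels in both stroma pools rho was 0.944 between genotypes, a description in which genes of 1 pool share their library and depth.

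The first question was whether loss of Ezh2 moved the nuclear respiratory chain in the uterine epithelium. None of the 84 genes was called at an adjusted p under 0.05, against 0.12% of all 5811 listed genes. The authors' deposited table gives each of the 84 an adjusted p equal to 1. The log2 ratio of KO over WT had a median of -0.10 for the 84 genes and of -0.10 for all listed genes. Values lay in a narrow band, with quartiles of -0.17 and 0.00, against -0.28 and 0.08 for all listed genes, and 83 of 84 genes were within 0.5 log2 of 0, as were 5057 of the 5811 listed genes. The respiratory chain genes were also counted more deeply, with a median of 358 UMIs in KO and 340 in WT, against 103 and 102 for all listed genes, and the part of depth in the narrower spread was not tested. The number of genes with a higher value in KO was 22 of 84 as scaled by the authors and 42 of 84 when the median of all genes was set to 0, so no direction can be read from it.

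**Figure D1:**
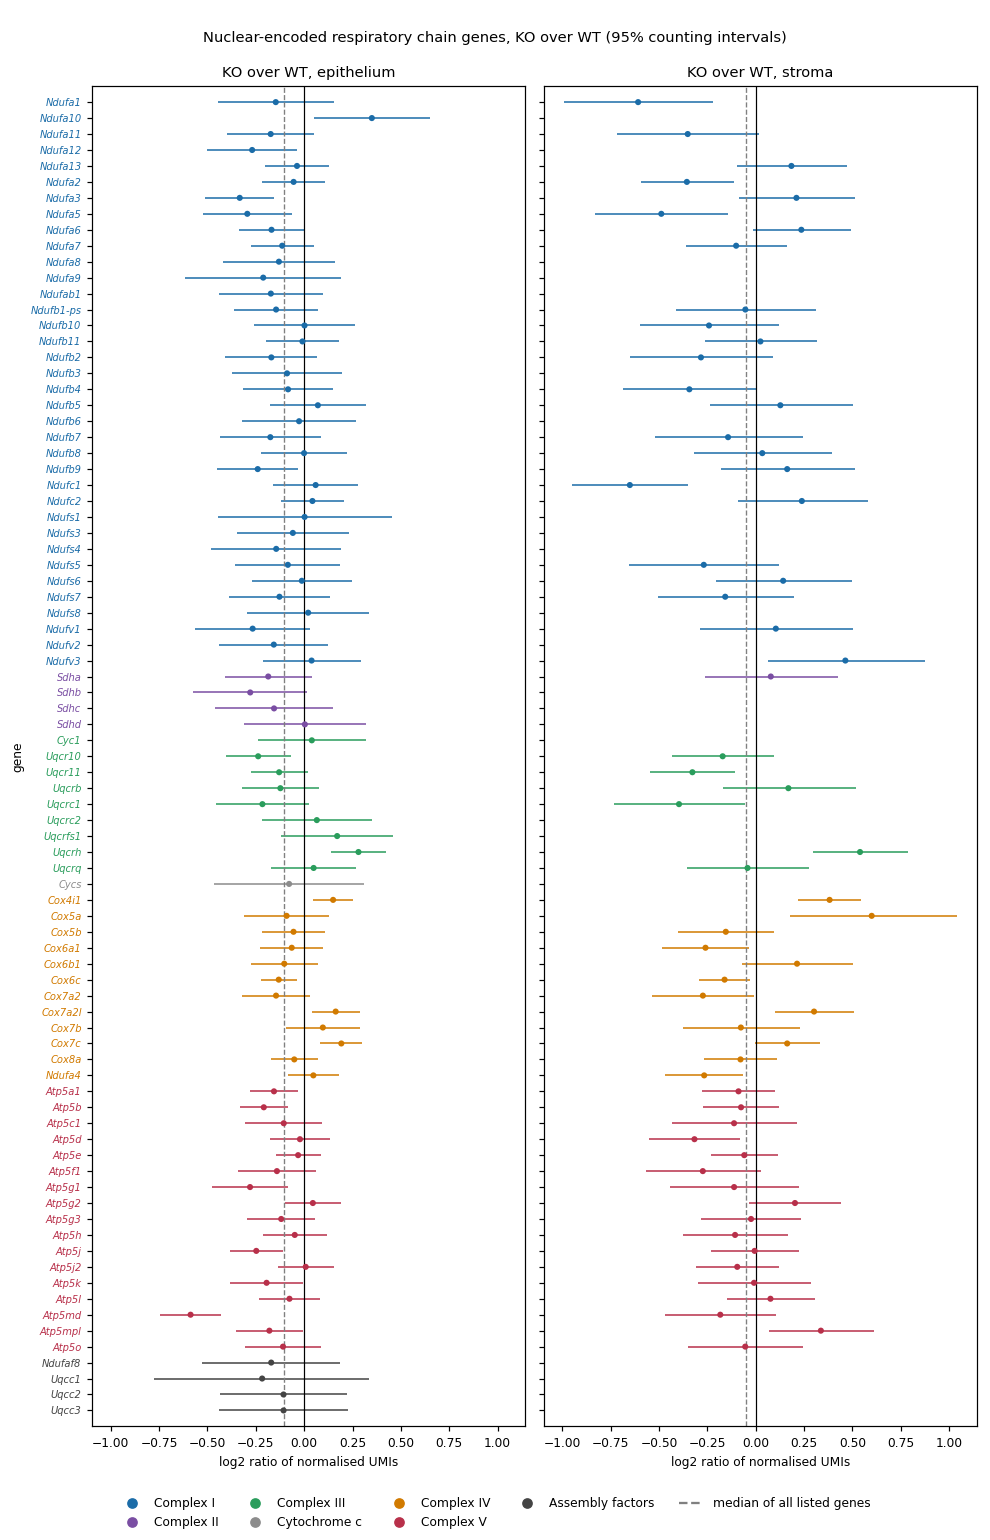
Log2 ratio of normalised UMIs, KO over WT, for respiratory chain genes in epithelium (left, 83 genes drawn) and stroma (right, 60 genes drawn), with lines for 95% counting intervals, colours for complexes and a dashed line at the median of all listed genes. Most points lie close to that line, and Atp5md at -0.59 in epithelium and Ndufc1 at -0.65 in stroma are the lowest.

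By complex, the summed level in KO epithelium was 0.94 of that in WT epithelium for complex I (counting interval 0.92 to 0.97), 0.89 for complex II (0.81 to 0.98), 0.99 for complex III (0.95 to 1.04), 1.01 for complex IV (0.99 to 1.04) and 0.91 for complex V (0.89 to 0.93). These sums are as scaled by the authors. On that scaling all listed genes had a median log2 ratio of -0.10, and the sums were not rescaled to it. In complex I, 3 of 7 core subunits, which carry the redox centres, and 6 of 30 accessory subunits had a higher value in KO as scaled by the authors. Of these sets 4 of 7 and 15 of 30 lay above the median of all listed genes. In complex V, 2 of 17 genes had a higher value in KO, Atp5g2 of the c ring at 0.04 and Atp5j2 at 0.01 on the log2 scale, and 6 of 17 lay above that median. The 5 subunits of the catalytic F1 head ranged from -0.21 (Atp5b, the catalytic beta subunit) to -0.02 (Atp5d, delta).

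The gene farthest from the others was Atp5md, which encodes DAPIT, a small membrane subunit that helps ATP synthase form dimers. It had 9.36 normalised UMIs in KO epithelium (577 UMIs) and 14.1 in WT epithelium (800 UMIs), a fold of 0.67 (0.60 to 0.74). In stroma it had 6.22 in KO and 7.06 in WT. The KO and WT intervals did not overlap in epithelium (8.61 to 10.2 in KO, 13.1 to 15.1 in WT) and overlapped in stroma, yet both comparisons are listed with an adjusted p equal to 1 in the authors' deposited table.

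At the other end, Ndufa10, an accessory subunit of the membrane arm, had 3.58 normalised UMIs in KO epithelium and 2.81 in WT epithelium, a fold of 1.27 (1.04 to 1.57). Uqcrh, the hinge protein that bridges cytochrome c1 and cytochrome c in complex III, had 14.9 in KO and 12.3 in WT, a fold of 1.21 (1.10 to 1.34). Next to Atp5md at the low end stood the complex I accessory subunits Ndufa3, with 7.69 in KO and 9.68 in WT (log2 ratio -0.33), and Ndufa5, with 4.82 in KO and 5.91 in WT (log2 ratio -0.29). None of these passed the authors' test.

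Genes of 1 family or complex differed in their measured values, and no difference between them was tested. The c ring of ATP synthase is built from identical proteins encoded by Atp5g1, Atp5g2 and Atp5g3, which differ in their import signals. Atp5g1 had 6.47 normalised UMIs in KO epithelium and 7.86 in WT epithelium (log2 ratio -0.28), Atp5g2 had 13.5 in KO and 13.1 in WT (0.04), and Atp5g3 had 8.79 in KO and 9.54 in WT (-0.12). In complex IV the abundant Cox4i1, the regulatory subunit IV isoform found in most tissues, had 27.2 in KO and 24.5 in WT (0.15), Cox7c had 25.4 in KO and 22.2 in WT (0.19), and Cox6c had 30.1 in KO and 33.0 in WT (-0.13). Cox7a2l, a factor that joins complexes III and IV into supercomplexes, had 18.9 in KO and 16.9 in WT (0.16).

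The subunits encoded in the mitochondrial genome stood apart from the nuclear ones. All 10 listed had a higher value in KO epithelium, from mt-Nd3 at 0.29 to mt-Nd4 at 0.71 on the log2 scale, with a median of 0.55 and a summed level 1.50 times that of WT (1.49 to 1.52). In the same pools the 84 nuclear genes summed to 0.95 of WT (0.94 to 0.97). For each UMI of the 61 nuclear genes listed in all 4 comparisons, the 10 mitochondrial genes had 2.31 UMIs in KO epithelium and 1.47 in WT epithelium. The same measure was 2.02 in KO stroma against 1.48 in WT stroma. In the authors' deposited table the lowest adjusted p among the 10 in epithelium was 0.841 (mt-Nd4), so no mitochondrial gene was called either. The share of UMIs from mitochondrial transcripts is also used as a sign of RNA quality, it differed here between pools of different animals, and its part in this contrast was not tested.

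Related metabolic groups differed in their medians in epithelium. The median log2 ratio was -0.19 over 66 mitochondrial ribosome genes, -0.17 over 21 import genes, -0.16 over 6 mitochondrial antioxidant enzymes, -0.14 over 15 other assembly factors of the chain, -0.10 over 17 genes of the TCA cycle and pyruvate dehydrogenase and -0.02 over 8 mitochondrial carriers and porins. The 14 genes of glycolysis, a cytosolic pathway, had a median of -0.09. The 80 cytosolic ribosome genes had a median of 0.08. Among regulators the 4 listed were Tfam, which packages and transcribes mitochondrial DNA (-0.12), Yy1 (0.01), Gabpa (0.06) and the coactivator Pprc1 (-0.07). No gene of these lists was called.

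Markers of other cells moved between the same pools. In KO epithelium, 7 of 9 endometrial stroma markers had a higher value, and their averages summed to 140.0 in KO and 101 in WT. None of 7 smooth muscle markers did, and theirs summed to 14.5 in KO and 23.7 in WT. Of these 7, 3 had a KO average of at most 1, so that WT alone brought them in and they could only be lower in KO. Of 14 simple epithelium markers 3 had a higher value in KO, and their summed averages were 169 in KO and 193 in WT. Their part in the respiratory chain values was not tested.

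**Figure D2:**
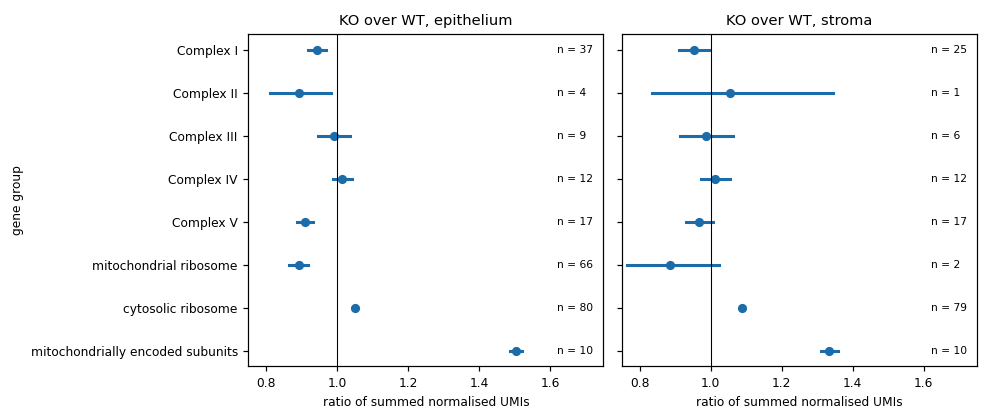
Ratio of summed normalised UMIs, KO over WT, with 95% counting intervals as bars where wider than the point, for the 5 complexes and 3 other gene groups in epithelium (left) and stroma (right). The nuclear complexes lie between 0.89 and 1.06, and the mitochondrially encoded subunits at 1.50 in epithelium and 1.33 in stroma. The 1.06 is complex II in stroma, where only 1 of its genes was listed (0.83 to 1.34).

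In stroma the same genotype comparison listed 61 of the 84 genes, and again none was called, against 1.51% of 1191 listed genes. The lowest adjusted p among them in the authors' deposited table was 0.671. The median log2 ratio was -0.08, against -0.05 for all listed genes, with quartiles of -0.24 and 0.14, and 23 genes had a higher value in KO (27 lay above the median of all listed genes). The summed level was 0.98 of WT (0.96 to 1.00), with 0.95 for complex I, 1.01 for complex IV and 0.97 for complex V. The lower WT stroma depth widened each interval.

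Ndufc1, a short accessory subunit of the complex I membrane arm, had the lowest log2 ratio. Its stroma level was 4.75 normalised UMIs in KO and 7.46 in WT, a fold of 0.64 (0.52 to 0.78), and its epithelial values were 5.95 in KO and 5.71 in WT. The authors' deposited table gives the stroma ratio an adjusted p of 0.671. Ndufa1, a membrane-arm subunit encoded on the X chromosome, had levels of 2.93 in KO stroma and 4.47 in WT stroma. On the scale of this comparison its average in KO stroma was at most 1, so that WT alone brought it in. In both genes WT stroma was the highest of the 4 pools.

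Uqcrh had a stroma level of 12.0 normalised UMIs in KO and 8.26 in WT, a fold of 1.45 (1.23 to 1.73), and the authors' deposited table gives it an adjusted p of 0.878. KO was thus higher for Uqcrh in both compartments, without a call in either. Cox5a, a matrix-side subunit of complex IV, had levels of 4.13 in KO stroma and 2.73 in WT stroma, a fold of 1.52 (1.13 to 2.06). On the scale of this comparison its WT average was at most 1, so that KO alone brought it in. Cox4i1 had 25.3 in KO and 19.4 in WT (log2 ratio 0.38), and Atp5mpl, a small proteolipid of ATP synthase, had 8.86 in KO and 7.01 in WT (0.34).

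Over the 61 genes listed for both compartments, median log2 ratios of KO over WT were -0.10 in epithelium and -0.08 in stroma. As scaled by the authors, both compartments gave a higher KO value for 9 genes and a lower one for 32, and the signs differed for 20. With the median of all listed genes set to 0 in each compartment, 17 genes were above it in both, 20 were below it in both, 14 were above it in epithelium alone and 10 in stroma alone, so these counts show no common direction. Whether any gene's genotype ratio differed between compartments was not tested, since the tables give neither raw p-values nor standard errors.

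In KO stroma, 6 of 6 listed simple epithelium markers had a higher value than in WT stroma, and their averages summed to 11.3 in KO and 4.96 in WT. None of 6 smooth muscle markers did, and theirs summed to 8.23 in KO and 17.3 in WT. Of these 6, 3 were called lower in KO, against 1.51% of all listed genes called in either direction. Of 9 endometrial stroma markers 5 had a higher value in KO, and their averages summed to 73.0 in KO and 85.7 in WT. No epithelium or endometrial stroma marker was called. The listing fixed part of these directions. Of the 6 epithelium markers, 4 had a WT average of at most 1 and were brought in by KO alone. Of the 6 smooth muscle markers, 2 had a KO average of at most 1 and were brought in by WT alone. Of the 9 endometrial stroma markers, 2 had a WT average of at most 1 and were brought in by KO alone. Mitochondrially encoded subunits had a higher value in KO stroma for 8 of 10, with a median of 0.32, and mt-Co1 had the largest log2 ratio at 0.93. The part of these shifts in the stroma values of the respiratory chain was not tested.

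The compartments were then compared within each genotype. The nuclear respiratory chain was on the whole higher in epithelium than in stroma, by a small amount in most of its genes. In KO, 72 of 80 listed genes had a higher value in epithelium, with a median log2 ratio of 0.23 against -0.01 for all listed genes, of which 1351 of 2744 had a higher value. In WT, 61 of 73 did, with a median of 0.28 against 0.02 for all listed genes, of which 899 of 1769 had a higher value. Summed levels were 1.18 times as high in epithelium in KO (1.16 to 1.19) and 1.21 times in WT (1.19 to 1.24).

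Single calls were few. In KO 1 of 80 genes was called, higher in epithelium, while 9.88% of all listed genes were called in either direction and 5.43% as higher. In WT 4 of 73 were called, all higher in epithelium, while 28.8% of all listed genes were called and 13.1% as higher. The share of respiratory chain genes called was thus below the background in both genotypes. Of the 73 genes in WT, 10 had a stroma average of at most 1 and were brought in by epithelium alone. Over the other 63 the median was 0.23, with 2 calls. Over all 1045 genes above 1 in both groups the median was 0.03. Of these 1045, 15.0% were called in either direction, 68 genes as higher.

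**Figure D3:**
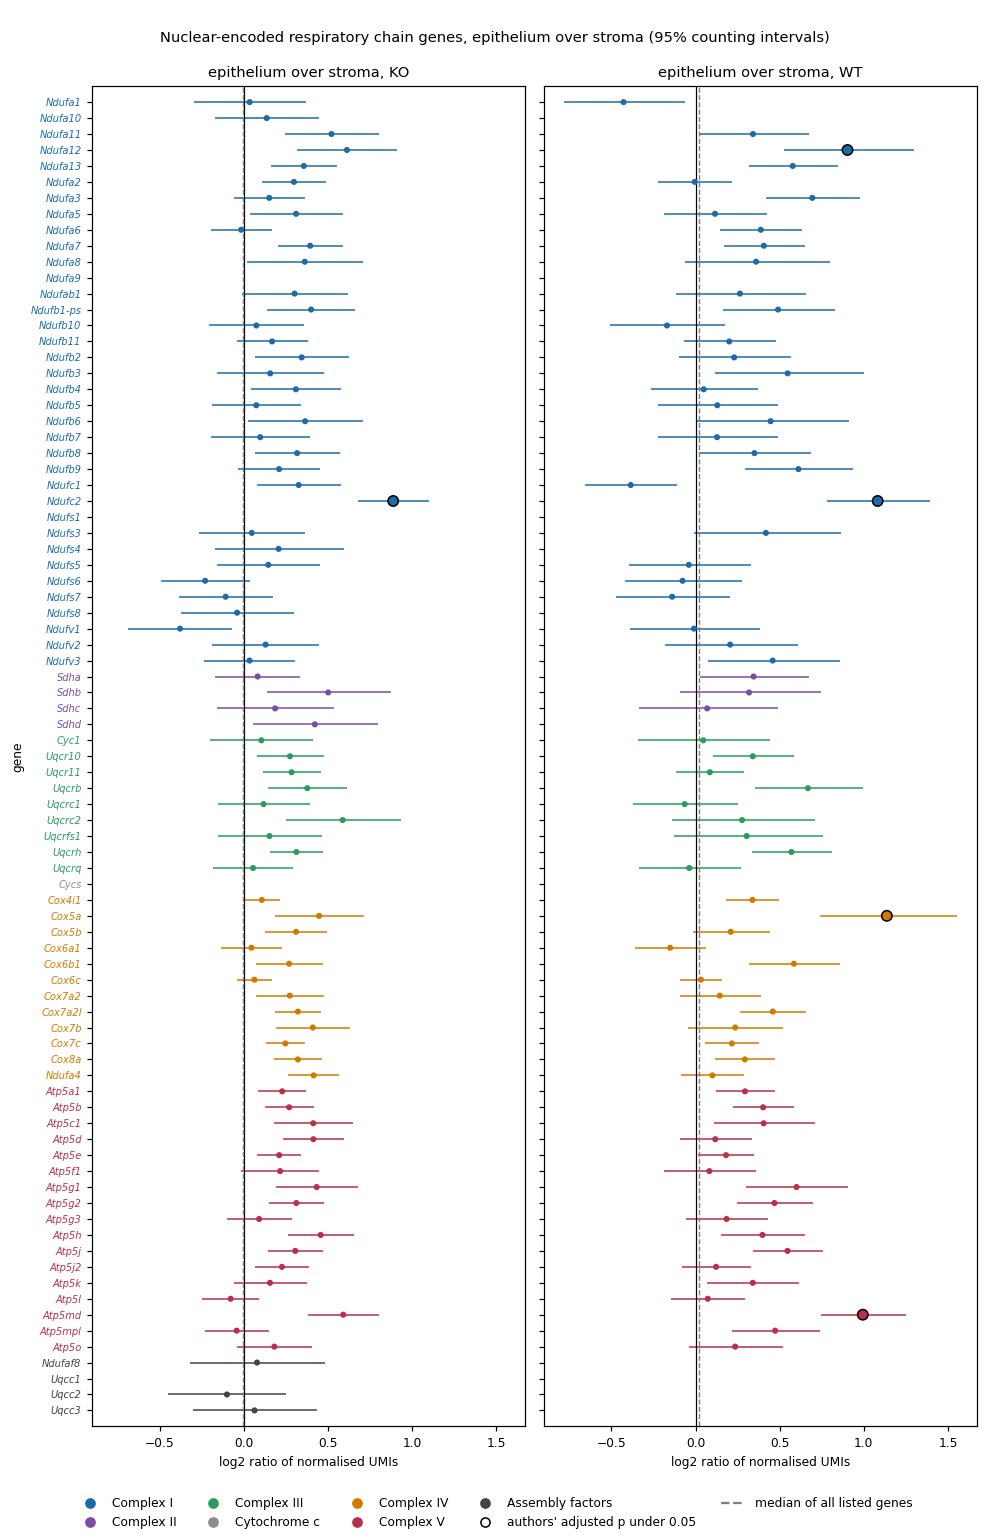
Log2 ratio of normalised UMIs, epithelium over stroma, for respiratory chain genes in KO (left, 79 genes drawn) and WT (right, 72 genes drawn), with lines for 95% counting intervals and black-edged points for genes with an adjusted p under 0.05 in the authors' deposited tables. Most points lie to the right of 0, and the edged points are Ndufc2 in both genotypes and Ndufa12, Cox5a and Atp5md in WT.

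Ndufc2 was the one gene called in both genotypes. It encodes an accessory subunit of the complex I membrane arm and lies on chromosome 7 (97400003 to 97407802, plus strand, 3 exons). Its level in KO was 10.4 normalised UMIs in epithelium and 5.64 in stroma. Its level in WT was 10.1 in epithelium and 4.78 in stroma. Both epithelial pools lay above both stromal pools with no overlap of intervals, and genotype made little difference within a compartment. The fold was 1.85 in KO (1.60 to 2.15) and 2.12 in WT (1.72 to 2.63), and the authors' deposited tables give it an adjusted p of 0.0150 in KO and 0.00182 in WT.

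Cox5a, on chromosome 9 (57521274 to 57532426, plus strand, 5 exons), had 5.63 normalised UMIs in KO epithelium and 4.13 in KO stroma, a fold of 1.36 (1.14 to 1.64), and the authors' deposited table gives it an adjusted p of 0.530. In WT it had 5.99 in epithelium and 2.73 in stroma, a fold of 2.20 (1.67 to 2.94), and the authors' deposited table gives it an adjusted p of 0.0017. Its epithelial levels were close between genotypes, and WT stroma was the lowest pool.

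Atp5md, on chromosome 19 (47083464 to 47090647, minus strand, 4 exons), had 9.36 normalised UMIs in KO epithelium and 6.22 in KO stroma, a fold of 1.51 (1.30 to 1.74), and the authors' deposited table gives it an adjusted p of 0.177. In WT it had 14.1 in epithelium and 7.06 in stroma, a fold of 1.99 (1.68 to 2.38), and the authors' deposited table gives it an adjusted p of 0.00189. Here the stromal levels were close and WT epithelium was the highest pool.

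Ndufa12, on chromosome 10 (94198720 to 94221443, plus strand, 4 exons), encodes an accessory subunit of the complex I matrix arm. It had 4.78 normalised UMIs in KO epithelium and 3.13 in KO stroma, a fold of 1.53 (1.25 to 1.88), and the authors' deposited table gives it an adjusted p of 0.253. In WT it had 5.76 in epithelium and 3.08 in stroma, a fold of 1.87 (1.44 to 2.46), and the authors' deposited table gives it an adjusted p of 0.0199. For Cox5a and Ndufa12 the WT stroma average, on the scale of the WT comparison, was at most 1. Only a higher epithelial value could thus bring them into that comparison. Whether the compartment folds of Cox5a, Atp5md and Ndufa12 differed between genotypes was not tested.

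**Figure D4:**
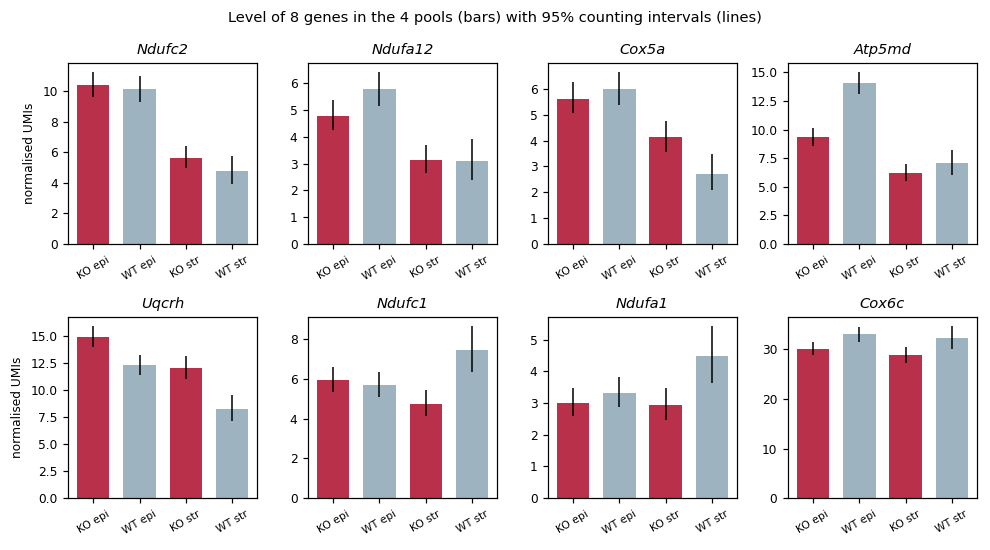
Normalised UMIs of 8 respiratory chain genes (bars, with lines for 95% counting intervals) in the epithelium (epi) and stroma (str) pools of KO and WT. The top row holds the 4 genes called between compartments, such as Ndufc2 at 10.4 and 10.1 in KO and WT epithelium against 5.64 and 4.78 in KO and WT stroma. The bottom row holds 4 genes that were not called.

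Complexes differed little in this contrast. In KO the summed epithelial level was 1.17 times the stromal one for complexes I and IV, 1.19 for complexes II and V and 1.20 for complex III. In WT it was 1.20 times for complexes I, II and III, 1.17 for complex IV and 1.26 for complex V. Higher values in epithelium were found for 15 of 17 complex V genes in KO and 17 of 17 in WT, and for 12 of 12 complex IV genes in KO and 11 of 12 in WT.

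Within complex I the core and the accessory subunits had different values. In KO the 6 listed core subunits had a median of 0.00 on the log2 scale, with a summed ratio of 0.98 (0.91 to 1.07), against a median of 0.30 and a sum of 1.20 (1.16 to 1.24) for 29 accessory subunits. In WT the 5 listed core subunits had a median of -0.01 and a sum of 1.03 (0.92 to 1.16), against 0.34 and 1.23 (1.18 to 1.28) for 27 accessory subunits. This split was noted after the values were seen, core and accessory values of a genotype come from the same pools, and it was not tested. Ndufv1, the core subunit that binds NADH, had 2.95 normalised UMIs in KO epithelium and 3.84 in KO stroma (log2 ratio -0.38), and 3.55 in WT epithelium and 3.57 in WT stroma (-0.01). Ndufs7, a core iron-sulfur subunit, had log2 ratios of -0.11 (KO) and -0.14 (WT), and the zinc-binding accessory subunit Ndufs6 had -0.23 in KO and -0.08 in WT.

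Ndufa1 had a log2 ratio of epithelium over stroma of 0.03 in KO and -0.43 in WT, Ndufc1 of 0.32 in KO and -0.39 in WT, and Ndufb10 of 0.07 in KO and -0.17 in WT, which were the lowest WT values. Over the 61 genes listed in all 4 comparisons the median log2 ratio of epithelium over stroma was 0.27 in KO and 0.24 in WT, and 46 of the 61 had a higher epithelial value in both genotypes. The contrasts of the genotypes share no pool. The simple epithelium markers, by comparison, had summed epithelium over stroma ratios of 3.11 in KO (12 markers) and 7.75 in WT (9 markers). The marker sets differ between genotypes, and 3 of the 12 and 7 of the 9 were listed through epithelium alone.

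**Figure D5:**
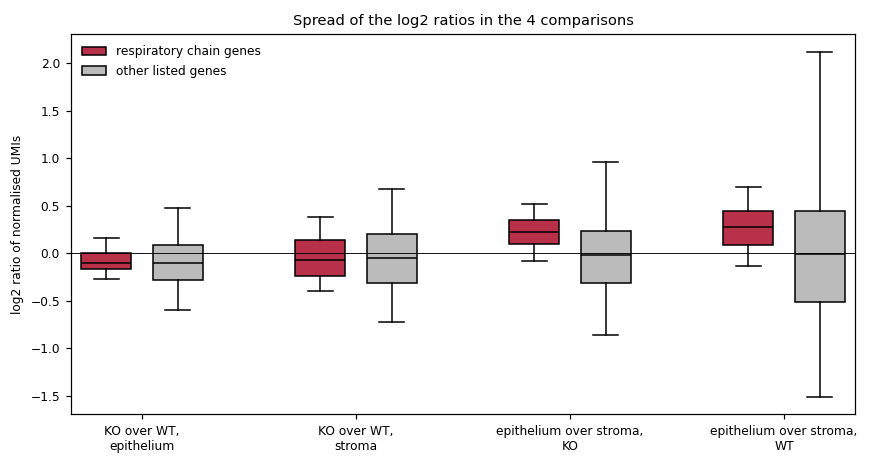
Log2 ratios of normalised UMIs in the 4 comparisons for respiratory chain genes and for other listed genes, with boxes for quartiles, a line at the median and whiskers from the 5th to the 95th percentile. The respiratory chain boxes are narrower than those of other genes in each comparison and lie above 0 between compartments, with medians of 0.23 in KO and 0.28 in WT.

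Related genes gave the setting of this contrast. The 10 mitochondrially encoded subunits were mixed, with higher epithelial values for 9 in KO and 6 in WT, and mt-Co1, which encodes the catalytic subunit of complex IV, was called higher in both (1.73-fold in KO and 2.14-fold in WT). The authors' deposited tables give mt-Co1 an adjusted p of 0.0399 in the KO contrast and 0.000111 in the WT one. The cytochrome b gene of complex III, mt-Cytb, had a log2 ratio of 0.41 in KO, where it was not called, and of 0.68 in WT, where the authors' deposited table gives it an adjusted p of 0.0286, so that 1 of the 10 was called in KO and 2 in WT. Glycolysis genes had higher epithelial values for 10 of 10 in KO, with 1 call, and 9 of 9 in WT, with 2 calls. TCA cycle and pyruvate dehydrogenase genes did for 7 of 10 in KO and 5 of 5 in WT, with no call, and import genes for 9 of 12 in KO, with no call, and 10 of 10 in WT, with 1 call. Mitochondrial ribosome genes had higher epithelial values for 21 of 25 in KO, with a median of 0.23, and 12 of 12 in WT, with a median of 0.39, and 1 was called in each. Genes with a stroma average of at most 1 were listed through epithelium alone, which fixed their direction. They were 6 of the 25 mitochondrial ribosome genes in KO and 6 of the 12 in WT. Among import genes they were 1 of 12 in KO and 3 of 10 in WT. Among TCA cycle and pyruvate dehydrogenase genes they were 2 of 10 in KO and 1 of 5 in WT, and among glycolysis genes 1 in each. Mitochondrial carriers and porins had higher epithelial values for 7 of 8 in KO, with 1 call. In WT 5 of 6 did, with 2 called higher and 1 lower, and the largest log2 ratio was 0.996. Epithelium alone brought in 1 of the 8 and 2 of the 6. Among them Slc25a4 is the heart and muscle form of the ADP/ATP carrier that feeds ATP synthase with substrate. It had a log2 ratio of -0.35 in KO and was called lower in WT epithelium at -0.82. Slc25a5, the form of most proliferating cells, was called higher in epithelium at 0.88 in KO and 0.81 in WT. The smooth muscle markers were lower in epithelium for 5 of 5 in KO and 7 of 7 in WT. Stroma alone brought in 3 of the 5 and 4 of the 7, which had an epithelial average of at most 1. The part of these markers in the values above was not tested.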

How the data were processed

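Visium sections of 8 uteri were processed by the authors. They used GRCm38, per the submitters' processing notes. Neither the aligner, nor the rule that named spots epithelium or stroma, nor the test is stated (not given in the sources used here). Per the file headers, the 4 deposited tables hold for each gene an average per group (normalised signal), a log2 fold change and an adjusted p-value, each pooled over animals. The size factor sum of each group was found by least squares from the deposited averages and log2 values. With them, 100% of averages gave whole UMI sums (within 0.01), sums agreed between tables with 0 clashes, and the 4 pools could be put on 1 scale. Ratios in the text are of recovered sums without a pseudocount, with 95% Clopper-Pearson (ratios) or Poisson (levels) intervals for counting error only. Calls use the authors' adjusted p-value under 0.05, and no p-value was computed. No count model was run on the pooled sums, since each group is 1 pool.

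Respiratory chain genes and gene lists were chosen with earlier results of these data known. Named genes were those called, the 3 largest and 3 smallest log2 ratios per comparison among genes above 1 in both groups, the 3 highest per complex and members of isoform families; Cox5a and Ndufa1 in stroma were added after their values were seen. 1 gene that this rule names is not reported here and is not drawn in the plots of single genes, but stays in the counts, sums and medians. Scripts were tested on simulated tables. Python 3.11.15, NumPy 2.4.6, SciPy 1.17.1, pandas 2.3.3 and matplotlib 3.10.9 were used.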

Additional observations from a re-analysis of the deposited data

How the results depend on the processing

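Alternatives were a stricter adjusted p, a minimum fold, leaving out low-level genes, other scalings and the deposited log2 values; leaving out 9 genes with a near copy of their 3′ end was chosen after seeing the data. Between compartments, the 1 call in KO (Ndufc2) became 0 at an adjusted p under 0.01 and 0 with an absolute log2 ratio of at least 1. The 4 calls in WT became 3 at 0.01, 2 with a log2 ratio of at least 1 and 2 among genes above 1 in both groups, which drops Cox5a and Ndufa12 by construction. Between genotypes 0 genes were called under each setting tried. Calls rest on the authors' adjusted p, and these settings can remove a call but not add any. With 0 calls in the main setting this outcome was fixed in advance, so it is no check of that result. Medians of the respiratory chain genes moved by less than the spread between genes. Centring moved 2 of 156 single values outside their counting intervals, Cox4i1 to 0.25 and Cox6c to -0.03 in epithelium. No paired analysis was possible because each deposited value merges 4 animals, and for that reason no single replicate could be left out. Depth, lowest in WT stroma, limits all comparisons.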
